A study of Homo sapiens with 36 samples.

Results

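The BCL2 family of apoptosis regulators was described across 8 groups of HCT-116 cells, a human colorectal carcinoma line. The 10 genes, out of 62757 listed, were chosen by name: the BH3-only genes BBC3 (PUMA), PMAIP1 (NOXA), BID, BIK and BCL2L11 (BIM), the effectors BAX and BAK1 (BAK), and the pro-survival genes BCL2L1 (BCL-XL), MCL1 and BCL2L2 (BCL-w). Polyadenylated RNA was sequenced in 3 libraries per group, 24 in all. The question put to these cells was how loss of the ubiquitin ligase subunit FBXW7, a drop in the class IIa deacetylase HDAC4 and the platinum drug oxaliplatin (OXPT) act together.

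In 6 groups the cells were FBXW7-/- (called KO below), obtained through a supplier, and whether they are 1 clone is not stated. KO cells carried a control esiRNA (KO esiCT), an esiRNA pool against HDAC4 (KO esiHDAC4) or the control esiRNA with #11, a PROTAC that joins a class IIa HDAC binder to a ligand of the VHL ubiquitin ligase (KO #11), each without and with OXPT. The remaining 2 groups were WT cells without and with OXPT. Transfection lasted 48 h and OXPT was present at 50 µM for the last 24 h. The labels give #11 as 1 µM in one entry and as 10 µM in another. The titles of the WT libraries name the control esiRNA while their treatment entries name the one against HDAC4, so only their OXPT state is settled and they are called WT untreated and WT OXPT. In any comparison of KO with WT cells the genotype and a possible difference in esiRNA cannot be told apart.

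Apoptosis through mitochondria is set by contacts within this family. BH3-only proteins occupy the groove of the pro-survival members or bind the effectors directly, and freed BAX and BAK1 assemble into pores in the outer mitochondrial membrane that release cytochrome c. After DNA damage the transcription factor p53, which is wild type in HCT-116 cells, is known to switch on BBC3, PMAIP1 and BAX. MCL1 is a short-lived protein that FBXW7 marks for degradation, and transcript counts carry no information on that step.

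Between 10725966 and 20527222 reads were assigned to genes per library (median 14510758), and the lowest count of any member in any library was 213. Levels are given as CPM, gene counts relative to the library total after TMM scaling, and a fold change was called when edgeR's quasi-likelihood test gave a Benjamini-Hochberg adjusted p under 0.05 over 12356 genes and the fold was over 1.5. All 10 members passed the count minimum. HDAC4 transcripts stood at 18.4, 14 and 24.9 CPM in KO esiCT and at 8.94, 8.80 and 14.9 CPM in KO esiHDAC4, both untreated, so the groups overlapped (log2 fold change -0.82, adjusted p = 0.561). With OXPT, HDAC4 was at 6.28, 5.71 and 7.50 CPM with esiCT and at 4.13, 3.33 and 4.19 CPM with esiHDAC4, without overlap (log2 fold change -0.74, adjusted p = 1). FBXW7 transcripts were counted in KO cells at 15.4 to 18.1 CPM in the untreated esiCT libraries against 16.9 to 23.5 CPM in WT, so the transcript does not check the deletion, and no transcript level shows the protein that #11 degrades. HDAC4 transcripts were called lower with OXPT in KO esiCT, KO esiHDAC4 and WT. In OXPT-treated KO cells they were called higher with #11 than with esiCT (log2 1.27 to 1.45 with 1 library left out). That call was lost in 15 of these 24 fits. Among markers of colorectal epithelium EPCAM was at 215 to 360 CPM and CDX2 at 19.5 to 60.3 CPM in every library, while VIL1 was at or near 0 (at most 0.481 CPM). Of 7 markers of other cell types, COL1A1 reached 77.6 CPM and the other 6 did not exceed 0.792 CPM. A bulk level cannot separate fewer expressing cells from less RNA per cell.

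The third replicates of WT untreated, WT OXPT, KO esiCT OXPT and KO esiHDAC4 OXPT stood apart. Their unmapped share was 11.93 to 22.31%, against 7.74 to 10.49% in the other 20 libraries, and their long genes were counted low relative to short genes (median difference -1.01 to -0.67 on the log2 scale, against -0.27 to 0.79). The library labelled WT untreated replicate 3 also held the p53 target CDKN1A at 1221 CPM against 381 and 288 in the other WT untreated libraries, and the stress factor DDIT3 at 219 against 11.6 and 9.35. Results are given with all 24 libraries, and those whose call, direction or size changed most also without these 4, a choice made after seeing the data. Why these libraries differ was not tested.

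The 10 genes lie on 8 chromosomes (hg38), and 3 of them share much of their exon sequence with a neighbour, which matters because a read that overlaps more than 1 gene was left out as ambiguous. BCL2L1 (chr20:31664452-31723989, minus strand) shares 41.3% of its exon bases with the antisense RNA gene ABALON. BCL2L2 (chr14:23298790-23311751, plus strand) shares 24.8%, most of it with the read-through gene BCL2L2-PABPN1, and BCL2L11 (chr2:111119378-111168444, plus strand) shares 10.8%, with MIR4435-2HG. The counts of these 3 genes thus lack reads from the shared bases. PMAIP1 (chr18:59899996-59904305, plus strand), BID (chr22:17734138-17774770, minus strand), BIK (chr22:43110750-43129712, plus strand) and BAX (chr19:48954815-48961798, plus strand) share no exon base, and BBC3 (chr19:47220822-47232766, minus strand), BAK1 (chr6:33572547-33580293, minus strand) and MCL1 (chr1:150560895-150579738, minus strand) share at most 5.3%.

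The p53 consensus response element was searched within 2000 bases on either side of each gene start, as some members are known p53 targets. This response element is a pair of abutting 10-base elements, each with an invariant C and G. The element is palindromic, so a single pass reads both strands. With up to 3 mismatches outside the invariant bases, 5 of 10 members held a match, against 16.5% of the windows of 19968 protein-coding genes, and with up to 2 mismatches 3 of 10 did, against 2.91%. The members were chosen by name and include known p53 targets, so these shares are a description only. A part of p53 in the OXPT response was not tested. The best match of each of these 5 genes and, for comparison, that of CDKN1A follow on the gene's own strand, with the invariant C and G of each element in capitals.
BBC3: ctgCaaGtcctgaCttGtcc
PMAIP1: gggCttGtttaccCaaGtct
BIK: agaCtaGactgggCtaGacc
BAX: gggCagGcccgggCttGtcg
BAK1: gggCctGgccaggCatGtat
CDKN1A: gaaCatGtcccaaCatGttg
The BBC3 match (chr19:47231320-47231339, 3 mismatches) lies in an intron 1427 bases after the gene start, and that of PMAIP1 (chr18:59899549-59899568, 2 mismatches) 447 bases before it. The BIK match (chr22:43112688-43112707, 2 mismatches) and the BAK1 match (chr6:33579671-33579690, 3 mismatches) are intronic. The BAX match (chr19:48955213-48955232, 2 mismatches) falls 398 bases after the gene start, in an exon of a transcript other than the canonical one. BID, BCL2L11, BCL2L1, MCL1 and BCL2L2 had no match in this window. These letters describe the sequence and were not tied to any measurement of p53 binding.

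Levels per kilobase use all exon bases, so those of BCL2L1, BCL2L2 and BCL2L11 are too low by an amount that was not tested, and their places in the order are uncertain. Per kilobase of exon, BAX was the most abundant member with a median of 95.2 CPM per kb over the 24 libraries, and BCL2L11 the least with 3.24. Between them stood BCL2L1 (61.3), BIK (55.0), PMAIP1 (38.3), BBC3 (35.7), MCL1 (26.1), BAK1 (16.5), BID (15.2) and BCL2L2 (7.60). In untreated KO esiCT cells the order ran BAX (43.7 ± 10.4 CPM per kb, SD, n = 3), BIK (35.8 ± 16.8), BCL2L1 (32.7 ± 8.70), MCL1 (21.7 ± 2.39), PMAIP1 (15.8 ± 1.64), BID (14.5 ± 0.838), BAK1 (13.5 ± 1.87), BBC3 (8.45 ± 3.10), BCL2L2 (7 ± 0.486) and BCL2L11 (3.68 ± 0.871). Among these neighbours the libraries separated only between MCL1 and PMAIP1, between BAK1 and BBC3, and between BCL2L2 and BCL2L11. With OXPT the same cells held BAX at 172 ± 78.6, PMAIP1 at 36.7 ± 3.12 and BBC3 at 35.9 ± 0.347 CPM per kb. BBC3 and PMAIP1 then stood above MCL1 (27.7 ± 3.62), which they had been below without the drug.

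**Figure D1:**
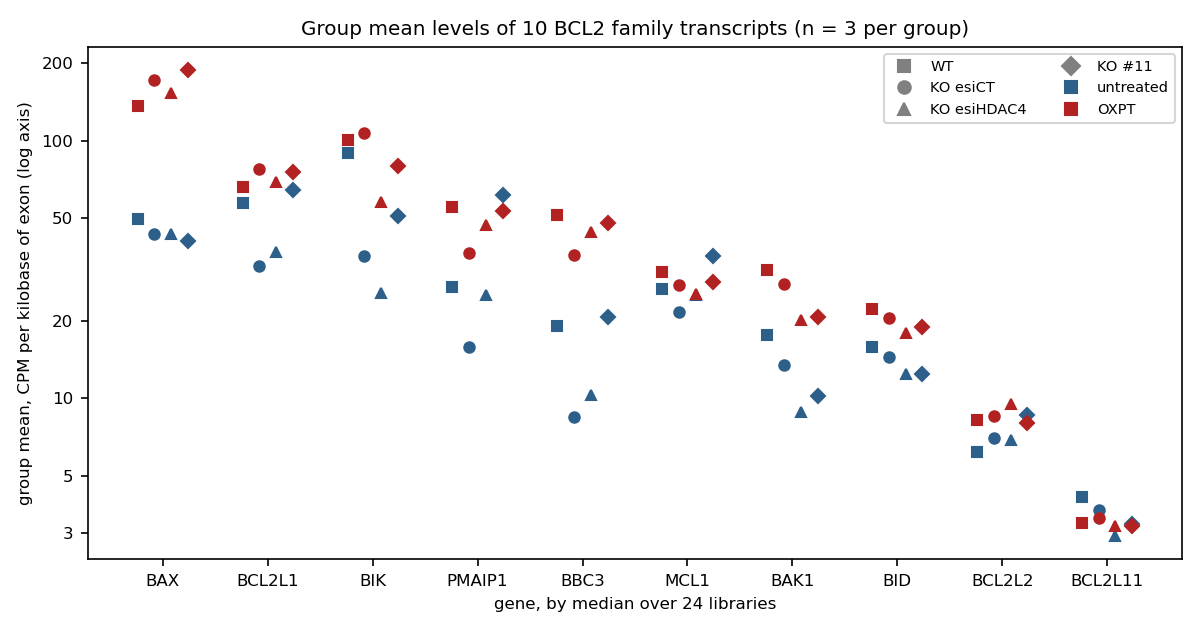
Group mean levels of the 10 transcripts in CPM per kilobase of exon (log axis), ordered by the median over 24 libraries, with 1 point per group of 3 libraries and untreated and OXPT groups in different colours. BAX lies highest (group means 41.0 to 188) and BCL2L11 lowest (2.93 to 4.14), and the OXPT points sit above the untreated ones for BBC3, BAX, BAK1, BID and BCL2L1.

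BBC3, BAX and BAK1 were the members called higher with OXPT in the edgeR model of all 24 libraries with no covariate. In KO esiCT cells these 3 of the 10 members were called higher and 0 lower. The background there was 6.23% of all genes tested that were called higher. BBC3, BAX and BAK1 were called in KO esiHDAC4 as well (3 of 10, background 6.44%), BAX and BAK1 in KO #11 (2 of 10, background 5.94%) and BAX and BBC3 in WT (2 of 10, background 5.1%). Members that were not called may still have risen, and more were called under other settings, as given below. The median log2 fold change over the 10 members was 1.13 in KO esiCT, 0.90 in KO esiHDAC4, 0.42 in KO #11 and 0.45 in WT, beside medians over all genes of 0.01, 0.02, 0.00 and -0.06. Every OXPT library lay above every untreated one for 7 members in KO esiCT (background 15.3%), 7 in KO esiHDAC4 (18.8%), 5 in KO #11 (22.4%) and 2 in WT (11.5%).

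**Figure D2:**
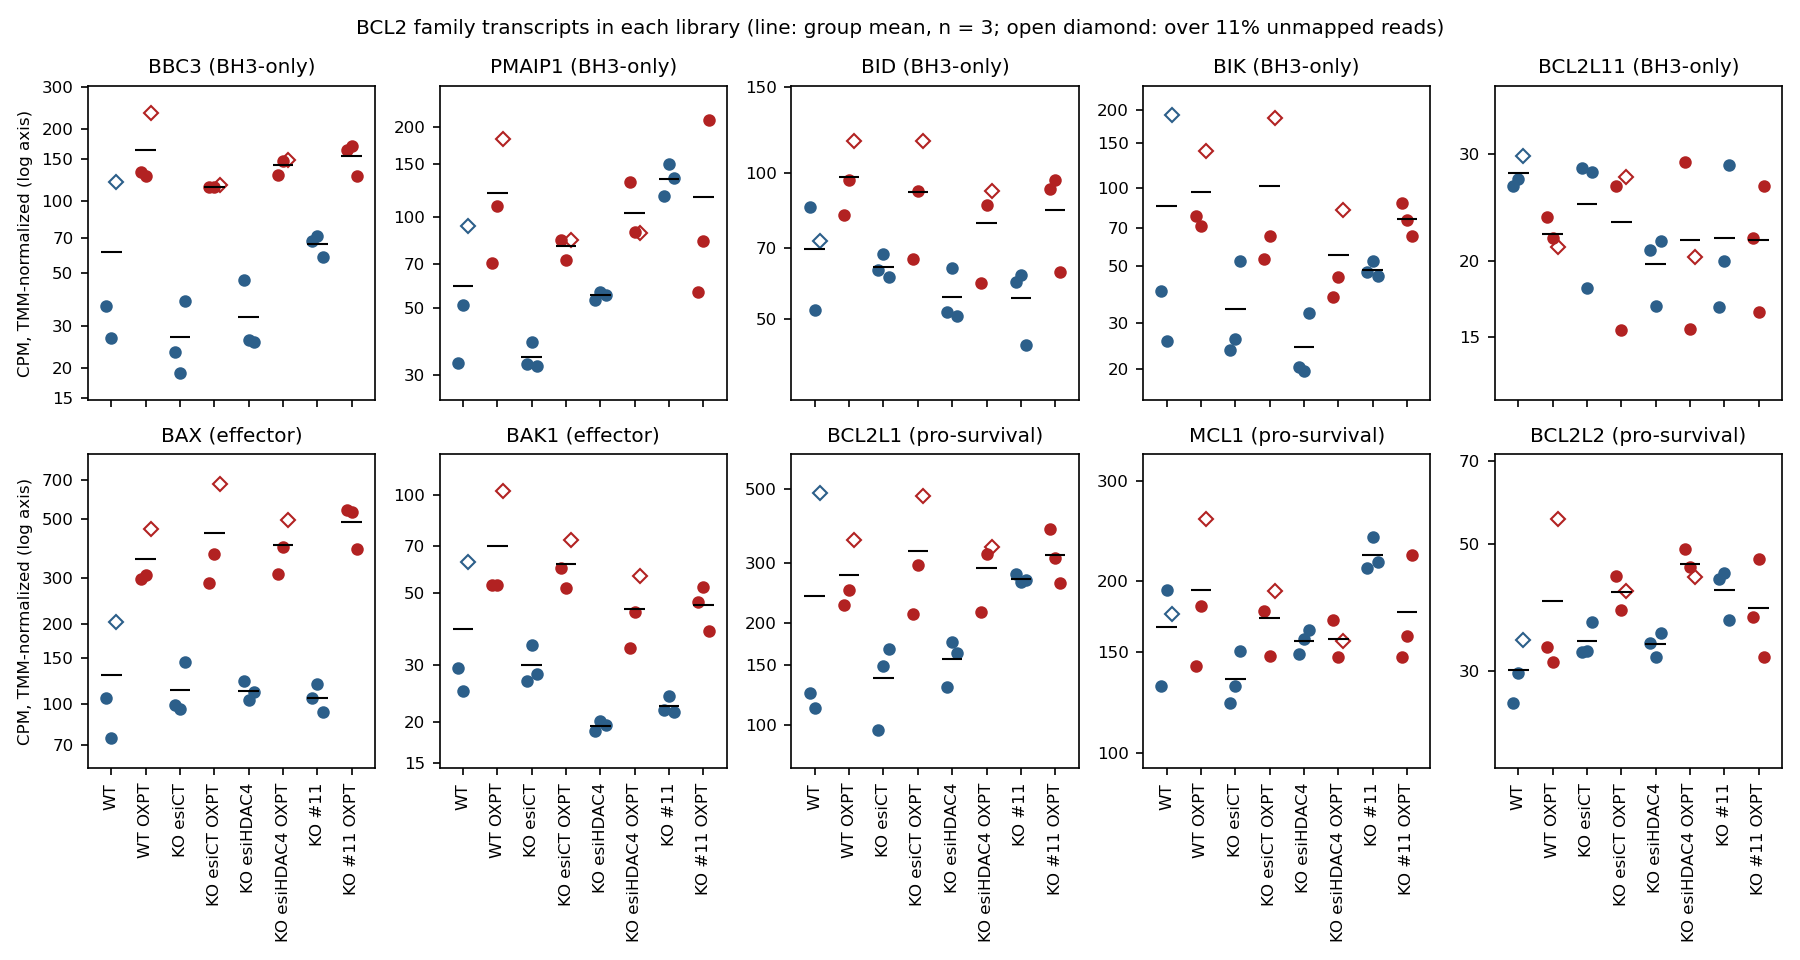
CPM of each member in each of the 24 libraries (log axis, a panel per gene), with a line at the group mean and open diamonds for the 4 libraries with over 11% unmapped reads. BAX in the OXPT groups sits between 287 and 674 CPM, above all untreated libraries (74.6 to 205), whereas BCL2L11 stays between 15.4 and 29.8 CPM throughout.

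Among the BH3-only genes BBC3, whose product PUMA binds every pro-survival member, had the largest response. Untreated KO esiCT libraries held BBC3 at 23.5, 19.2 and 38.1 CPM, and with OXPT at 114, 114 and 116 CPM. The rise was 4.24-fold (log2 2.09, SE 0.413, adjusted p = 0.00208). In KO esiHDAC4 cells BBC3 stood at 46.6, 26.2 and 25.9 CPM untreated and at 128, 147 and 148 CPM with OXPT. The groups were far apart, and the rise of 4.29-fold (log2 2.10, SE 0.413, adjusted p = 0.00198) differed from that with esiCT by 0.01 on the log2 scale (95% interval -1.16 to 1.19). In KO #11 cells BBC3 was at 68.2, 71.6 and 58.4 CPM before OXPT, above all other untreated KO libraries, and at 163, 170 and 127 CPM after it. The groups did not overlap, but the log2 fold change of 1.21 (SE 0.401) had an adjusted p of 0.0619. It passed with the replicate number as a block (adjusted p = 0.0362) and without the 4 libraries (log2 1.19, adjusted p = 0.00137). WT untreated libraries held BBC3 at 36.5, 26.8 and 120 CPM, and WT OXPT libraries at 132, 127 and 232 CPM. The third replicate was the highest of each WT group, and the rise was 2.68-fold (log2 1.42, SE 0.404, adjusted p = 0.027). Without the 4 libraries the WT log2 fold change was 2.05 (adjusted p = 1.3e-04). The WT call was lost in 3 of the 24 fits that left out 1 library (log2 1.06 to 2.38, adjusted p up to 0.147) and in the fit of the compared groups only (log2 1.32, adjusted p = 0.388).

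PMAIP1, whose product NOXA binds MCL1 in particular, did not pass the test for OXPT in any of the 4 settings with all 24 libraries and no block. It was at 32.6, 38.6 and 32.2 CPM in untreated KO esiCT and at 84.4, 72.4 and 84.0 CPM with OXPT, which gave a log2 fold change of 1.22 (SE 0.402, adjusted p = 0.0536) without overlap. In KO esiHDAC4 it was at 53.3, 56.6 and 55.4 CPM untreated and at 131, 89.4 and 88.8 CPM with OXPT (log2 0.90, adjusted p = 0.155). Both KO groups thus separated from their controls, and the esiCT value passed without the 4 libraries (log2 1.21, adjusted p = 0.0276) and under the replicate block (adjusted p = 0.0235). In WT the libraries overlapped, at 32.9, 51.3 and 93.8 CPM untreated and at 70.5, 109 and 182 CPM with OXPT (log2 1.02, adjusted p = 0.107). The KO esiHDAC4 and WT values passed in fits of the compared groups only with the block, added after seeing the data (log2 0.86, adjusted p = 0.0211, and 0.98, adjusted p = 0.0378). In KO #11 the order differed: 118, 150 and 135 CPM without OXPT and 56.5, 83.3 and 210 CPM with it. Of these 3 OXPT libraries 2 lay below and 1 above the whole untreated group, and the log2 fold change was -0.20 (95% interval -1.02 to 0.62, adjusted p = 0.803).

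BIK, a BH3-only protein of the endoplasmic reticulum, went from 23.7, 26.0 and 52.4 CPM to 53.1, 65.0 and 187 CPM with OXPT in KO esiCT. The libraries just failed to overlap, and the log2 fold change of 1.58 (SE 0.583) had an adjusted p of 0.0852. That value leaned on the third replicate, since without the 4 libraries it was 0.82 (adjusted p = 0.0578), and with the block the adjusted p was 0.0177. In WT, BIK was at 39.9, 25.6 and 191 CPM untreated and at 78.2, 71.5 and 139 CPM with OXPT. WT untreated replicate 3 was thus above all 3 treated libraries, and the log2 fold change of 0.17 (adjusted p = 0.888) became 1.21 (adjusted p = 0.0142) without the 4 libraries. In KO esiHDAC4 and KO #11 the values were 1.18 (adjusted p = 0.207) and 0.65 (adjusted p = 0.532), both without overlap. Without the 4 libraries the KO esiHDAC4 value was 0.76 (adjusted p = 0.0746).

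BID, which caspase-8 cleaves to link death receptors to mitochondria, ranged from 44.3 to 116 CPM over all libraries. Its log2 fold changes with OXPT were 0.51 in KO esiCT, 0.51 in KO esiHDAC4, 0.60 in KO #11 and 0.49 in WT, and none passed (adjusted p = 0.119 to 0.206). Without the 4 libraries they were 0.32, 0.38, 0.58 and 0.40 in that order. In KO #11, BID passed in the compared groups only (log2 0.61, adjusted p = 0.0494) and there with the block (log2 0.60, adjusted p = 0.00638). BCL2L11, whose product BIM is set largely by growth factor and FOXO signalling, was at 15.4 to 29.8 CPM (median 21.8). Its log2 fold change lay between -0.33 in WT, where all OXPT libraries were lower (1 member, background 9.81%), and 0.13 in KO esiHDAC4, and none passed.

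Both effectors rose with OXPT in all 3 KO settings, and BAX in WT too. BAX, the pore former that moves from the cytosol to mitochondria, was at 99.4, 95.7 and 144 CPM in untreated KO esiCT and at 287, 370 and 674 CPM with OXPT. It rose 3.93-fold there (log2 1.97, SE 0.338, adjusted p = 6.6e-04), and 2.96-fold without the 4 libraries (log2 1.56, adjusted p = 3.7e-05). In KO #11 it went from 106, 119 and 93.1 CPM to 542, 529 and 386 CPM, a rise of 4.58-fold (log2 2.20, SE 0.341, adjusted p = 2.6e-04). No BAX library with OXPT overlapped an untreated one in any setting. In KO esiHDAC4 BAX was at 122, 104 and 111 CPM untreated and at 310, 392 and 494 CPM with OXPT (3.55-fold, adjusted p = 0.00112). In WT it was at 106, 74.6 and 205 CPM untreated and at 297, 306 and 458 CPM with OXPT (2.75-fold, adjusted p = 0.00667). The 4 BAX calls held in each of the 24 fits that left out 1 library, but the WT call was lost in the fit of the compared groups only (log2 1.37, adjusted p = 0.201).

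BAK1, which resides in the mitochondrial membrane, was at 26.9, 34.7 and 28.3 CPM in untreated KO esiCT and at 59.7, 52.0 and 72.7 CPM with OXPT. The rise was 2.05-fold (log2 1.04, SE 0.301, adjusted p = 0.029). KO esiHDAC4 started lower, at 18.8, 20.2 and 19.7 CPM, and reached 33.8, 43.7 and 56.4 CPM (2.28-fold, adjusted p = 0.013). In KO #11 BAK1 went from 21.9, 24.2 and 21.5 CPM to 47.1, 52.3 and 38.2 CPM (2.04-fold, adjusted p = 0.0344). Each KO group with OXPT lay above its own untreated group. WT libraries overlapped, at 29.5, 25 and 62.2 CPM untreated and at 53, 53.1 and 103 CPM with OXPT. The WT log2 fold change of 0.84 had an adjusted p of 0.0762, which became 0.036 under the replicate block and 0.00167 without the 4 libraries (log2 0.98). The BAK1 calls in KO esiCT, KO esiHDAC4 and KO #11 were lost in 4, 3 and 7 of the 24 fits that left out 1 library.

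No pro-survival member passed the test for OXPT in the edgeR model of all 24 libraries with the count minimum and no covariate. BCL2L1, whose product BCL-XL holds both effectors in check, was at 96.5, 149 and 167 CPM in untreated KO esiCT and at 212, 296 and 475 CPM with OXPT (log2 1.25, SE 0.416, adjusted p = 0.0558). The groups did not overlap, and the value passed without the 4 libraries (log2 0.91, adjusted p = 0.00876) and with the block (adjusted p = 0.0221). In KO esiHDAC4 it was at 129, 176 and 163 CPM untreated and at 215, 321 and 335 CPM with OXPT (log2 0.90, adjusted p = 0.176, and 0.77 with adjusted p = 0.0213 without the 4 libraries). In WT untreated replicate 3 BCL2L1 was at 486 CPM, against 124 and 112 CPM in the other WT untreated libraries and 226 to 353 CPM with OXPT. The WT log2 fold change was therefore 0.20 (adjusted p = 0.806) with that library and 1.04 (adjusted p = 0.00821) without the 4 libraries. In KO #11 it was already at 279, 265 and 268 CPM untreated and at 379, 312 and 263 CPM with OXPT, where the groups overlapped (log2 0.23, adjusted p = 0.782).

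MCL1, the substrate of FBXW7, had transcript levels of 122 to 257 CPM in all 24 libraries. With OXPT its log2 fold change was 0.35 in KO esiCT (from 122, 131 and 151 CPM to 177, 148 and 192 CPM), 0.01 in KO esiHDAC4, 0.22 in WT and -0.33 in KO #11 (from 211, 239 and 216 CPM to 147, 160 and 222 CPM). All 4 pairs of groups overlapped, the adjusted p ran from 0.294 to 0.985, and the 95% intervals lay within -0.76 and 0.78. The KO esiHDAC4 value changed sign under several settings and stood within 0.08 of 0. BCL2L2 ranged from 26.4 to 55.3 CPM and had log2 fold changes of -0.10 to 0.47. The largest, in KO esiHDAC4, came without overlap (33.6, 31.8 and 35.0 CPM against 49.1, 45.6 and 43.9 CPM) and did not pass (adjusted p = 0.141).

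**Figure D3:**
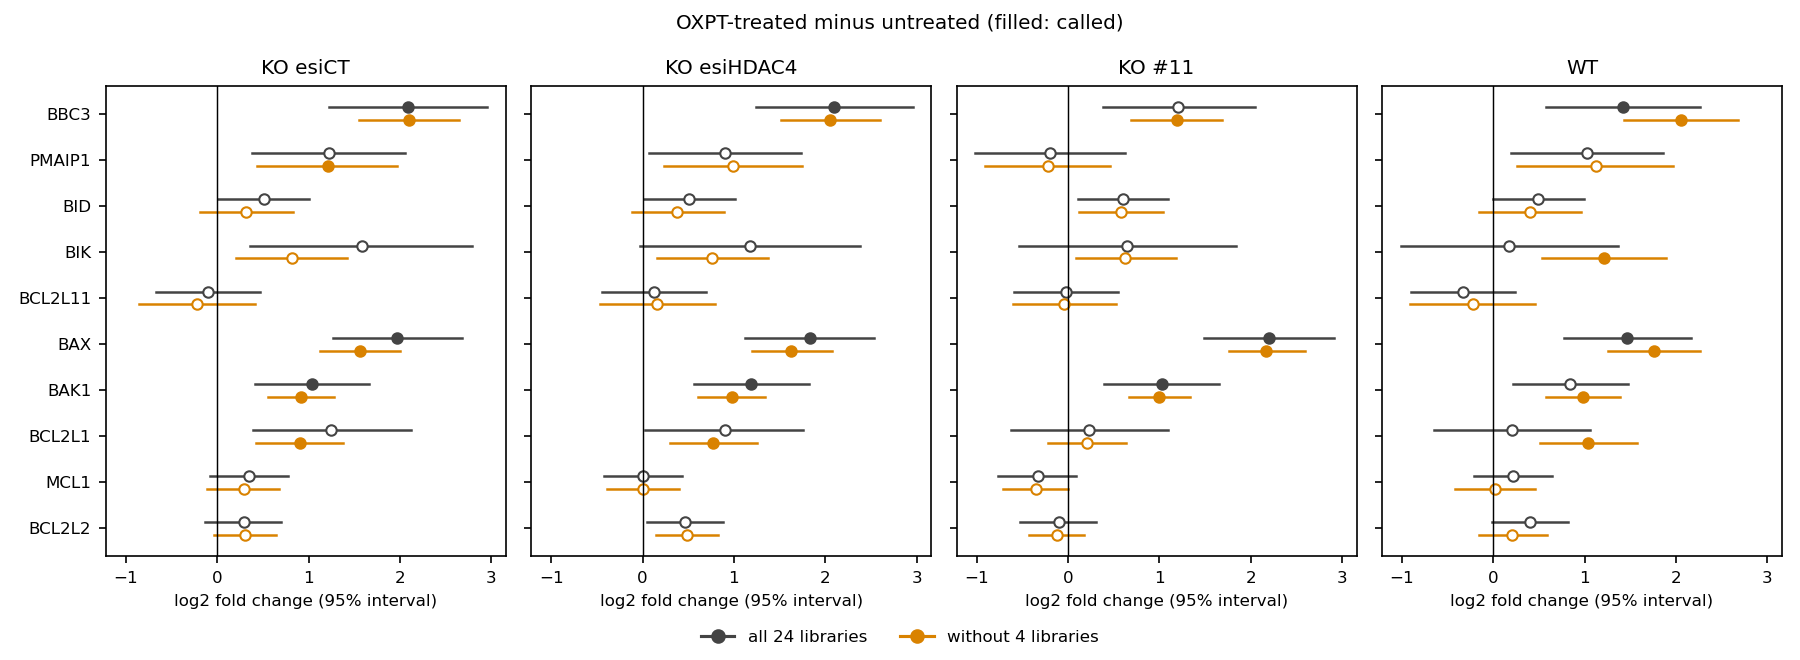
Log2 fold change with OXPT and its 95% interval for each member in KO esiCT, KO esiHDAC4, KO #11 and WT, with all 24 libraries and without the 4 of highest unmapped share. BAX lies between 1.46 and 2.20 with all libraries, MCL1 between -0.33 and 0.35, and in WT the values of BIK and BCL2L1 move from 0.17 and 0.20 to 1.21 and 1.04.

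The number of members called for OXPT depended on some settings. In KO esiCT 6 of 10 were called by DESeq2 (background 8.44%), with the replicate block (background 8.56%) and without a count filter (background 2.19%), and without the 4 libraries 5 were called, all higher (background 8.26%). Without these libraries 4 were called in KO esiHDAC4 (background 8.42%), 3 in KO #11 (background 10.4%) and 5 in WT (background 8.31%). BBC3, BAX and BAK1 were among the called members in all 4 settings of that fit. In the fit of the WT groups only 0 of 10 were called (background 0.391%). With the block in the compared groups only, 6 were called in KO esiCT (background 5.27%), 6 in KO esiHDAC4 (background 8.86%), 5 in KO #11 (background 12.4%) and 3 in WT (background 2.08%).

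PMAIP1 was the member called higher with #11 alone. In untreated KO cells it was at 118, 150 and 135 CPM with #11 and at 32.6, 38.6 and 32.2 CPM with esiCT. The rise was 3.90-fold (log2 1.96, SE 0.409, 95% interval 1.11 to 2.82, adjusted p = 0.039), and PMAIP1 was 1 of 10 members called, against 0.38% of all genes that rose. The call was lost in 12 of the 24 fits that left out 1 library (adjusted p = 0.00775 to 0.215), while the direction held in each. All 3 #11 libraries lay above the esiCT libraries for 5 members (background 17.2%) and below them for BAK1 (background 14.8%). BBC3 was at 68.2, 71.6 and 58.4 CPM against 23.5, 19.2 and 38.1 CPM (log2 1.3, SE 0.405, adjusted p = 0.132). BCL2L1 was at 279, 265 and 268 CPM against 96.5, 149 and 167 CPM (log2 0.98, SE 0.414, adjusted p = 0.284). MCL1, the binding partner of NOXA, was at 211, 239 and 216 CPM against 122, 131 and 151 CPM (log2 0.72, SE 0.205, adjusted p = 0.106). Each of these 3 separated without passing, and BCL2L2 did so by 0.30 (adjusted p = 0.559). Without the 4 libraries, none of which belongs to these groups, PMAIP1 (adjusted p = 0.00182), BBC3 (0.0027), BCL2L1 (0.00637) and MCL1 (0.0122) were all called, with log2 fold changes of 1.97, 1.31, 0.99 and 0.73. The share of all genes called in that fit is not given, so these calls are not read as a result about the members.

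BAX, which rose with OXPT in all 4 settings, overlapped between #11 alone and esiCT (log2 -0.09, 95% interval -0.77 to 0.59). The stress factors ATF3 and DDIT3, known activators of BH3-only genes, were at 188, 190 and 137 CPM and at 115, 107 and 93.9 CPM in untreated KO #11, against 16, 19.5 and 19.5 CPM and 15.9, 11.0 and 7.92 CPM in untreated KO esiCT. ATF3 passed (log2 3.22, adjusted p = 0.039), a call lost in 12 of the 24 fits that left out 1 library (adjusted p up to 0.215), and DDIT3 did not (log2 3.18, adjusted p = 0.0908), and their part in the PMAIP1 level was not tested. None of the 14 p53 targets outside the family passed there. CDKN1A had a log2 fold change of 0.41 (adjusted p = 0.679), and without the 4 libraries 2 of the 14 rose.

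In OXPT-treated KO cells edgeR called 0 of 10 members for #11 against esiCT (background 0.121%), with 0 at an unadjusted p under 0.05 and 0 called by DESeq2. PMAIP1 had a log2 difference of 0.54 (95% interval -0.29 to 1.36) and overlapped. BBC3 was above in all 3 libraries (1 member, background 9.46%) by 0.42 (95% interval -0.40 to 1.25). The difference in OXPT response between #11 and esiCT had an unadjusted p under 0.05 for 2 of 10 members. Of all 12356 genes tested 863 had one as well. PMAIP1 responded by -1.42 on the log2 scale relative to esiCT (SE 0.562, edgeR adjusted p = 0.585) and MCL1 by -0.68 (SE 0.289, adjusted p = 0.626). Over all genes 0 of 10 members passed by edgeR or DESeq2, against a background of 0%. The 2 responses share no library.

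With the esiRNA against HDAC4 no member was called. In untreated KO cells edgeR called 0 of 10 (background 0.00809%), 0 had an unadjusted p under 0.05, and DESeq2 called 0. PMAIP1 was at 53.3, 56.6 and 55.4 CPM with esiHDAC4 and at 32.6, 38.6 and 32.2 CPM with esiCT. It was the only member above in all libraries (background 9.61%), by a log2 of 0.68 (95% interval -0.15 to 1.51, adjusted p = 1). BAK1 was the only member below in all libraries (background 12.1%), at 18.8, 20.2 and 19.7 CPM against 26.9, 34.7 and 28.3 CPM. Its log2 fold change was -0.61 (95% interval -1.24 to 0.01, adjusted p = 1). Both passed in a fit of these 2 groups alone with the replicate block, added after seeing the data (PMAIP1 0.69, adjusted p = 0.0124, and BAK1 -0.60, adjusted p = 0.0209; background 4.77%), and in no other fit. BBC3 overlapped, at 46.6, 26.2 and 25.9 CPM against 23.5, 19.2 and 38.1 CPM (log2 0.29, 95% interval -0.54 to 1.12).

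In OXPT-treated KO cells edgeR again called 0 of 10 members for esiHDAC4 (background 0%), with 0 at an unadjusted p under 0.05 and 0 by DESeq2. PMAIP1 and BBC3 were the members above in all libraries (2 of 10, background 2.1%). Other members went lower: the median log2 fold change over the 10 was -0.14 and the lowest -0.88. BIK was at 37.8, 45.3 and 82.2 CPM with esiHDAC4 and at 53.1, 65 and 187 CPM with esiCT. BAK1 was at 33.8, 43.7 and 56.4 CPM with esiHDAC4 and at 59.7, 52 and 72.7 CPM with esiCT, and both overlapped. PMAIP1 was at 131, 89.4 and 88.8 CPM against 84.4, 72.4 and 84.0 CPM (log2 0.36, 95% interval -0.46 to 1.18, adjusted p = 1). BBC3 was at 128, 147 and 148 CPM against 114, 114 and 116 CPM (log2 0.30, 95% interval -0.52 to 1.13, adjusted p = 1). The intervals allow differences of over 2-fold for both genes, so the absence of a call does not show that the levels were alike. The OXPT response itself differed between esiHDAC4 and esiCT for 0 of 10 members by the same test (background 0%), 0 had an unadjusted p under 0.05, DESeq2 called 0, and the differences in log2 fold change ran from -0.40 (BIK) to 0.23 (BCL2L11).

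**Figure D4:**
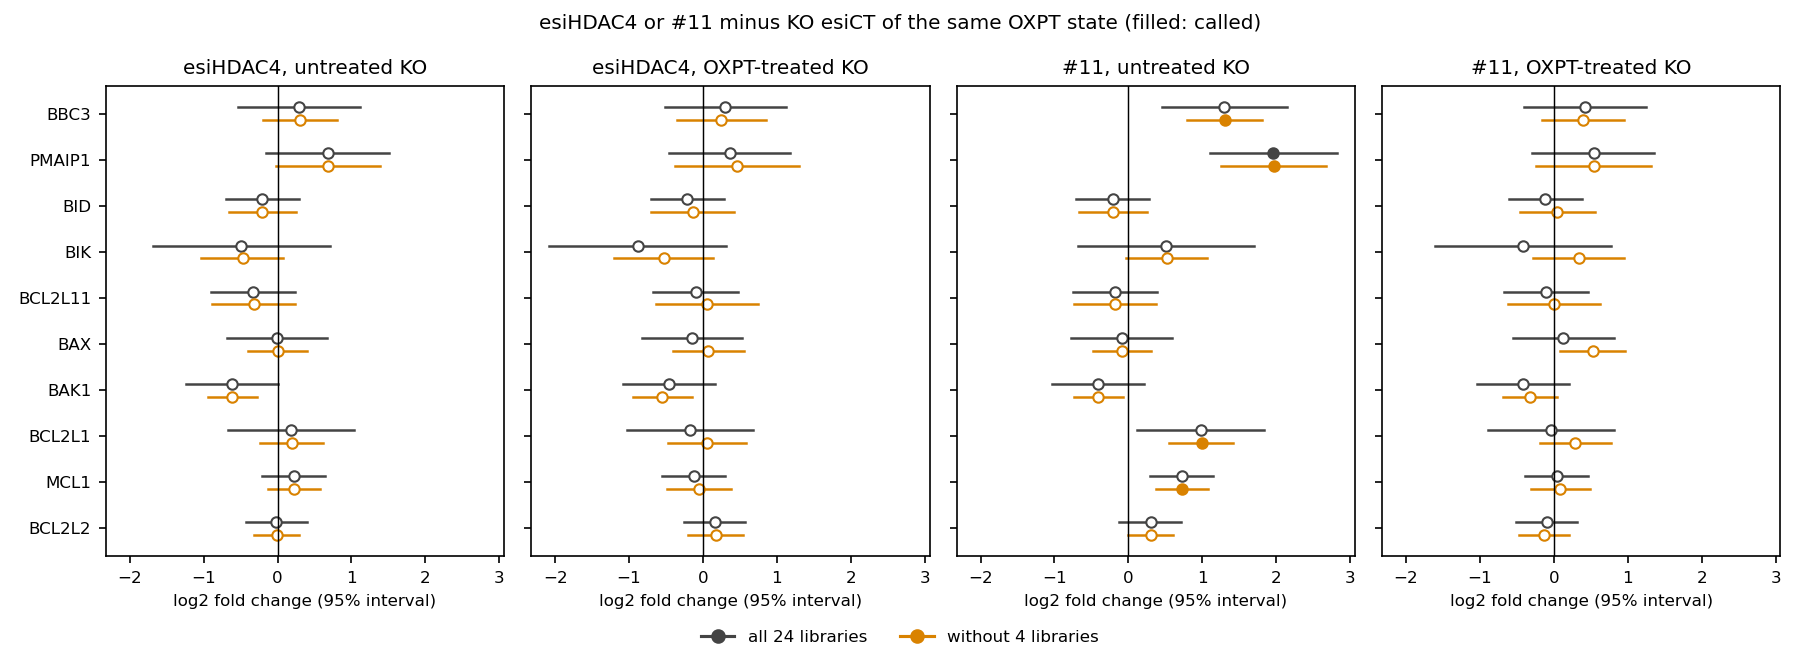
Log2 fold change and 95% interval of each member for esiHDAC4 and for #11 against esiCT in KO cells, untreated and with OXPT, with all 24 libraries and without the 4 of highest unmapped share. PMAIP1 lies at 1.96 for #11 without OXPT, and all members lie between -0.88 and 0.68 for esiHDAC4 in both states.

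Between KO esiCT and WT cells no member was called. Untreated, edgeR called 0 of 10 (background 0.291%), DESeq2 called 0, and 2 had an unadjusted p under 0.05, beside 709 of all 12356 genes tested. The 2 members were BBC3 (log2 -1.18, adjusted p = 0.481) and BIK (log2 -1.33, adjusted p = 0.761). Without the 4 libraries, which include WT untreated replicate 3, their values were -0.23 and 0.05. MCL1 was at 122, 131 and 151 CPM in KO esiCT and at 131, 193 and 175 CPM in WT, both untreated, which overlapped (log2 -0.30, 95% interval -0.73 to 0.13). With OXPT edgeR and DESeq2 called 0 of 10 members (background 0.138%), with 0 at an unadjusted p under 0.05. BBC3 was then lower in all 3 KO esiCT libraries (1 member, background 4.11%), at 114, 114 and 116 CPM against 132, 127 and 232 CPM (log2 -0.52, adjusted p = 0.995). Without the 4 libraries, which include WT OXPT replicate 3, the BBC3 value was -0.19. With all libraries MCL1 differed by -0.17 (95% interval -0.59 to 0.26).

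KO esiHDAC4 with OXPT and KO #11 with OXPT were also set against WT OXPT, and 0 of 10 members were called by edgeR or DESeq2 in each (background 0.235% and 1.15%). At an unadjusted p under 0.05 there was 1 member in the first, BAK1 (log2 -0.64, adjusted p = 0.831), and 0 in the second, where all BAK1 levels were below those of WT (log2 -0.60, 1 member, background 8.19%). Of all 12356 genes tested 717 in the first and 1558 in the second had an unadjusted p under 0.05. Without the 4 libraries the BAK1 values were -0.47 in the first and -0.24 in the second. The OXPT response differed between KO esiCT and WT for 0 of 10 members (background 0%), with 0 at an unadjusted p under 0.05. The largest differences, 1.40 for BIK and 1.05 for BCL2L1, became -0.39 and -0.13 without the 4 libraries.

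Genes around the family were read from lists chosen with earlier results known. Of 14 p53 targets outside the family 13 rose with OXPT in KO esiCT, 13 in KO esiHDAC4, 11 in KO #11 and 10 in WT, beside 6.23, 6.44, 5.94 and 5.1% of all genes tested. Genes called in either direction made up 11.3, 12, 9.51 and 10.7% in that order, the background for the lists that follow. CDKN1A, the p21 inhibitor of cyclin-dependent kinases, rose by 3.18, 3.10, 2.55 and 2.55 on the log2 scale in that order. Of 13 other BCL2 family genes 9 were tested, and only BCL2, the founding pro-survival gene, was called, lower with OXPT in KO esiHDAC4 (log2 -0.89, adjusted p = 0.0433). BCL2 was at 1.88 to 6.58 CPM, and its call was lost in 13 of the 24 fits that left out 1 library (adjusted p up to 0.119). Of 19 genes downstream of the mitochondrial pores 18 were tested. BIRC5, the caspase inhibitor family member survivin that also acts in mitosis, was lower with OXPT in KO esiCT (log2 -1.17, adjusted p = 0.00941), KO esiHDAC4 (-1.58, adjusted p = 9.0e-04) and WT (-1.04, adjusted p = 0.0195). XIAP, which binds active caspases, was lower in WT (-0.92, adjusted p = 0.0295), and VDAC3, a channel of the outer membrane, was higher in KO #11 (0.70, adjusted p = 0.0232). With 1 library left out the BIRC5 and XIAP calls in WT were each lost in 3 of 24 fits and that of VDAC3 in 5.

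Of 8 genes of MCL1 protein turnover 7 were tested. FBXW7 was higher with OXPT in KO esiCT (log2 1.33, adjusted p = 0.00747) and KO #11 (1.09, adjusted p = 0.0281), where the counted transcript is that of the targeted gene. The deubiquitinase USP13 was lower in WT (-1.07, adjusted p = 0.025), and the ligase HUWE1 and the deubiquitinase USP9X were not called. Of 9 transcription factor genes 8 were tested, and ATF3 was the one called: higher with OXPT in KO esiCT (2.33, adjusted p = 0.0192) and KO esiHDAC4 (2.53, adjusted p = 0.0114), and with #11 alone as given above. With 1 library left out the FBXW7 call in KO #11 was lost in 5 of 24 fits, that of USP13 in 3, and those of ATF3 with OXPT in 4 and 1. In KO #11 with OXPT, every ATF3 and DDIT3 level was below those in KO #11 without it (log2 -1.15, adjusted p = 0.265, and -2.55, adjusted p = 0.0619). Both were called lower without the 4 libraries (-1.17 and -2.57). PMAIP1 was lower in 2 of those 3 OXPT libraries, as described above.

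The genes whose log2 CPM followed each member most closely over the 24 libraries were found among all genes tested, as a description in which the libraries share depth and treatment. BAX was closest to DDB2 (Pearson r = 0.98), a damage recognition gene and p53 target, with RABGGTA and RINL at the same r. BBC3 was closest to TRAF4 (0.96), BAK1 to CLTB (0.96) and BIK to S100A2 (0.97). PMAIP1 was closest to LRATD2 (0.89), BTG3 (0.88) and ATF3 (0.88), and MCL1 to VAPA (0.91) and LRATD2 (0.87). BID followed MRPL4 (0.95) and BCL2L1 followed DXO (0.92). BCL2L11 and BCL2L2 had no close neighbour, with highest r values of 0.72 (DHFR2) and 0.77 (ZBED10P).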

How the data were processed

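RNA from HCT-116 cells was sequenced after polyA selection with a kit labelled as stranded. The deposited files hold raw read counts per gene, which the authors made with Trimmomatic 0.39 and STAR 2.7.11a on hg38 according to the submitters' notes. The annotation release is not given in the sources used here. Of 62757 identifiers 99.8% matched GENCODE 44 without version. The study's methods describe another quantification for its own tests, so these counts are not the values it tested. Forward and reverse columns had nearly equal totals (ratio 1.004 to 1.016), so the unstranded column was used. Unmapped (7.74 to 22.31%), multimapping (3.17 to 3.91%), no-feature (2.58 to 5.79%) and ambiguous (10.64 to 12.23%) reads named no gene and were left out.

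Groups were taken from the labels. Another 12 WT libraries, whose labels contradict each other on OXPT, entered no comparison. The count minimum was a group mean of 64 reads, reached in 1 group or more by 12356 genes. All 24 libraries entered one edgeR 4.0.16 quasi-likelihood model (R 4.3.3) with a coefficient per group, TMM scaling and Benjamini-Hochberg adjustment, with no covariate. Fold changes came from that model, log2 CPM used a prior count of 2, and the SE is the log2 fold change over the root of F. Alternatives were DESeq2 1.42.0, reverse-strand counts, RLE scaling, 2 other filters, fits of the compared groups only, a replicate block and each library left out. The steps were tested on simulated data. The members and lists were chosen with earlier results of these data known. All 10 members were named, and of each other list at most the 5 genes called in most comparisons.

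Replicate numbers come from the titles. For OXPT against untreated, esiHDAC4 against esiCT, and KO esiCT or KO esiHDAC4 against WT, same-numbered libraries deviated together, with correlations from 0.11 to 0.83, and in comparisons of #11 with esiCT or WT they did not (-0.25 to 0.13). The 36 pairs of same-title libraries were all distinct (chi-square per degree of freedom 8.31 to 223.88). The labels do not say that replicates are separate cultures, so p-values measure the spread between these samples, which may be technical.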

Additional observations from a re-analysis of the deposited data

Results flagged for a closer look

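The difference between the OXPT response with #11 and with esiCT in KO cells had an unadjusted p under 0.05 for 2 members, PMAIP1 (-1.42 on the log2 scale) and MCL1 (-0.68), and neither passed over all genes (edgeR adjusted p = 0.585 and 0.626). Of all 12356 genes tested 863 had an unadjusted p under 0.05. Without the 4 libraries of highest unmapped share the values of PMAIP1 and MCL1 were -1.43 (adjusted p = 0.126) and -0.64 (adjusted p = 0.19).

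Of the 12 WT libraries outside the comparisons, 3 of the 4 sets of 3 held members whose level in all 3 libraries lay above the WT untreated ones, and in the set titled WT siHDAC4 UNT no member did. Their titles and treatment entries give opposite OXPT states, so the titles below only name them, and levels come from a joint scaling of 36 libraries. The 3 libraries titled WT PROTAC11 had a median of 167 CPM for PMAIP1. The 3 titled WT PROTAC11 OXPT had medians of 164 CPM for BBC3, 209 CPM for PMAIP1 and 362 CPM for BAX. The 3 titled WT siHDAC4 OXPT had medians of 162 CPM for BBC3, 107 CPM for PMAIP1, 383 CPM for BAX and 38.3 CPM for BCL2L2. WT untreated libraries held 26.2 to 118 CPM of BBC3, 31.7 to 92.2 of PMAIP1, 72.9 to 201 of BAX and 25.5 to 33.5 of BCL2L2 on that scale. The share of all genes that lay above the WT untreated libraries in these sets is not given. The levels are therefore a description and not a result about the members.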

How the results depend on the processing

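Over 135 counts of members called under alternatives, 115 stayed within 1.5 times the reported count. Most comparisons had a reported count of 0, and counts that stayed at 0 are among the 115. Most of the counts that moved belonged to the comparisons with calls, so the total overstates how far those held. The share of all genes called moved with the setting too. Among the OXPT fits whose share is given, genes called higher made up from 0.391% (fit of the WT groups only) to 12.4% (KO #11, block, compared groups only). For several of the fits below the share is not given. A changed count below is therefore not read as a result about the members. For OXPT in KO esiCT the count of 3 became 6 without a count filter, with DESeq2, with the replicate block and with the block in the compared groups only, and 5 without the 4 libraries of highest unmapped share. In KO esiHDAC4 the count of 3 became 6 without a filter, 5 in the compared groups only and 6 there with the block. In KO #11 the count of 2 became 5 in the compared groups only, without and with the block. In WT the count of 2 became 0 in the compared groups only and 5 without the 4 libraries. For #11 in untreated KO the count of 1 became 3 without a filter and with DESeq2, 4 in the compared groups only, 2 with the block and 4 without the 4 libraries. The count of 0 became 2 for esiHDAC4 in untreated KO (block, compared groups only), 2 for KO esiCT against untreated WT without a filter (BBC3 and BIK) and 1 for KO esiHDAC4 against WT with OXPT (BIK, block, compared groups only). The block moved no other count by over 1.5 times. Same-numbered libraries of the #11 and esiCT groups share only a number. The causes were not tested.

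With 1 library left out the counts for OXPT ran from 2 to 6 in KO esiCT, 2 to 4 in KO esiHDAC4, 1 to 3 in KO #11 and 1 to 6 in WT, and from 0 to 2 for #11 in untreated KO. In the other 10 comparisons they stayed at 0. The share of all genes called in these fits is not given, so the ranges describe the counts only. The highest counts for KO esiCT and WT, 6 each, came without WT untreated replicate 3. The BBC3 call in WT was lost without WT untreated replicate 1 or 2 or WT OXPT replicate 3.

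Among 730 single log2 fold changes 633 kept direction and side of the threshold, 70 newly passed, 16 no longer passed and 11 changed sign, none of them a called value. MCL1 with OXPT in KO esiHDAC4 was -0.08 with reverse-strand counts, -0.03 without a filter, -0.05 with the count minimum in every group and -0.01 in the compared groups only, without and with the block. Without the 4 libraries BIK was 0.34 for #11 in OXPT-treated KO and 0.05 for KO esiCT against untreated WT, BCL2L1 was 0.22 there, MCL1 was 0.01 for KO esiCT against WT with OXPT, and the differences in response between KO esiCT and WT were -0.13 for BCL2L1 and -0.39 for BIK. With 1 library left out, signs changed for MCL1 with OXPT in KO esiHDAC4 (-0.07 to 0.05) and WT (-0.04 to 0.40), PMAIP1 with OXPT in KO #11 (-0.94 to 0.10), BIK (-0.27 to 1.57) and BCL2L1 (-0.14 to 1.24) with OXPT in WT, PMAIP1 (-0.20 to 0.86) and BIK (-0.73 to 0.35) for #11 in OXPT-treated KO, BIK (-1.78 to 0.06) and BCL2L1 (-1.14 to 0.22) for KO esiCT against untreated WT, and MCL1 there with OXPT (-0.35 to 0.09).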

Other observations

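Among the 12 unassigned WT libraries BCL2L1 was at 395 to 499 CPM in those titled WT PROTAC11, at 277 to 574 CPM in those titled WT PROTAC11 OXPT, at 230 to 380 CPM in those titled WT siHDAC4 OXPT and at 157 to 591 CPM in those titled WT siHDAC4 UNT. MCL1 was at 167 to 236 CPM, 151 to 230 CPM, 148 to 190 CPM and 149 to 296 CPM in the same order. In the libraries titled WT siHDAC4 UNT PMAIP1 ranged from 54.6 to 278 CPM, and BBC3 from 58.2 to 116 CPM, within the WT untreated range of 26.2 to 118 CPM. BAX was at 111 to 200 CPM in the libraries titled WT PROTAC11 and at 73.4 to 160 CPM in those titled WT siHDAC4 UNT.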
